A study of Mus musculus with 12 samples.

Results

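The RNA of 3T3-L1 cells carrying the non-targeting mimic (NT mimic) was compared between day 6 and day 3 of adipogenic differentiation, across all expressed genes. The comparison uses 6 of the 12 libraries of the series, namely the 3 NT mimic libraries of day 3 and the 3 of day 6, chosen by their labels and not by any measured value. 3T3-L1 is an established line of mouse fibroblasts that fill with fat after hormonal induction and serve as a preadipocyte model, here grown on collagen-coated plates. The other 6 libraries carry a mimic of miR-335-5p and enter only where stated. All cells were transfected with a mimic for 48 h before induction, so the day 3 cells are not untransfected controls.

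Both groups received the same induction mixture for 3 days, made of 200 nM insulin, 0.5 mM 3-isobutyl-1-methylxanthine (IBMX), rosiglitazone and 250 nM dexamethasone in medium with foetal bovine serum. The day 3 libraries were taken at the end of that phase. The day 6 cells had then spent 2 days in medium with insulin alone and 1 day in medium without any of the 4 agents, the last also with antibiotics. Time in differentiation and withdrawal of the agents therefore cannot be told apart, since no library was taken from cells kept in the mixture to day 6. The labels call the day 3 cells preadipocytes and the day 6 cells adipocytes. They do not say whether the 3 replicates of a day are separate cultures. The p-values rest on how far the change between the days differs between the replicate numbers, a spread that is partly pooled across genes. That spread may reflect technique alone.

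The 4 agents act through known routes. Dexamethasone activates the glucocorticoid receptor, which switches on stress and metabolic genes within hours. IBMX blocks the phosphodiesterases that break down cyclic AMP (cAMP), which keeps protein kinase A and its transcription factor CREB active. Rosiglitazone is a ligand of PPARg, the nuclear receptor that drives fat cell genes, and insulin restrains the FoxO factors. In the usual course the early factors C/EBPb and C/EBPd hand over to PPARg and C/EBPa, and the cell trades its fibroblast matrix for the genes of fat storage.

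Library totals lay between 17690656 and 18936779 counts. Levels are in CPM, the usual depth-scaled counts, after TMM scaling of the library totals, and 1 CPM stood for 16.6 to 20.1 counts. The days lay apart along the first principal component (80.0% of the variance). The second (11.7%) set replicate number 1 of both days apart from numbers 2 and 3, and each count below was also taken without each number in turn and is given where a count of at least 5 moved by over 1.5 times. The test was edgeR's quasi-likelihood test with the replicate number as a block. Gene lists are given as the members called out of those tested. The shares to set beside them are those of all tested genes, of which 22.9% rose and 19.8% fell. A low member enters only through the day on which it is higher, so the counts do not stand for the members left out. A gene was called at a Benjamini-Hochberg adjusted p below 0.01, and a log2 value is the fitted change with its 95% interval.

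The marker genes of fat cells were read at both days, also at day 3. Of 15 adipocyte markers 14 were tested, 7 rose and 2 fell. Fabp4, the fatty acid binding protein of fat cells, stood at 3658, 3485 and 3097 CPM at day 3 and 4823, 3203 and 2828 CPM at day 6, so the groups overlapped (log2 0.05, 95% interval -0.24 to 0.34, adjusted p = 0.765). Of 14 preadipocyte and fibroblast markers 11 were tested, and 10 of them rose at the day labelled adipocyte, while Gsn, which encodes the actin-severing gelsolin, fell. As the RNA is from whole cultures, more cells of a type and more RNA per cell cannot be told apart here or below. Among 10 macrophage markers Ptprc, Itgam, C1qa and Tyrobp were at 0 in all 6 libraries, and the summed level of the list was 0.702 to 2.27 CPM at day 3 and 4.80 to 11.6 CPM at day 6, where its 2 tested members, Cd68 and Cd14, rose, Cd68 not without the replicate block (adjusted p = 0.0580). None of 8 endothelial markers passed the filter, and Kdr, Emcn and Cldn5 were at 0. The 2 tested epithelial keratins, Krt8 and Krt18, rose, with the list at 1.75 to 8.61 CPM at day 3 and 19.0 to 43.4 CPM at day 6, although neither was called without the replicate block (adjusted p = 0.0102 and 0.0153). Their part in the other results was not tested.

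Between the days, 2616 of 11436 tested genes rose (22.9%) and 2267 fell (19.8%). Rises were the larger changes: 1354 genes rose at least 2-fold (11.8%) against 562 that fell as far (4.91%), and 277 rose against 31 that fell at least 8-fold. The median change was log2 1.04 among the rises, -0.68 among the falls and 0.02 over all tested genes. The change had the same sign in all 3 replicate pairs for 4882 of the 4883 called genes. The call rests on these same pairs, so this agreement largely follows from it and is not a separate check. The libraries of the days did not overlap for 4637 of the called genes, against 6820 (59.6%) of all tested genes. Genes that rose took 10.6% of the counts at day 3 and 23.1% at day 6, while the share of those that fell went from 45.6% to 28.5%. Without replicate number 2, 3024 genes were called in place of 4883, and without numbers 1 and 3, 5530 and 3562. Without scaling factors, 71.6% of called genes were rises against 53.6% with them, and the median change was shifted by 0.17 on the log2 scale.

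**Figure D1:**
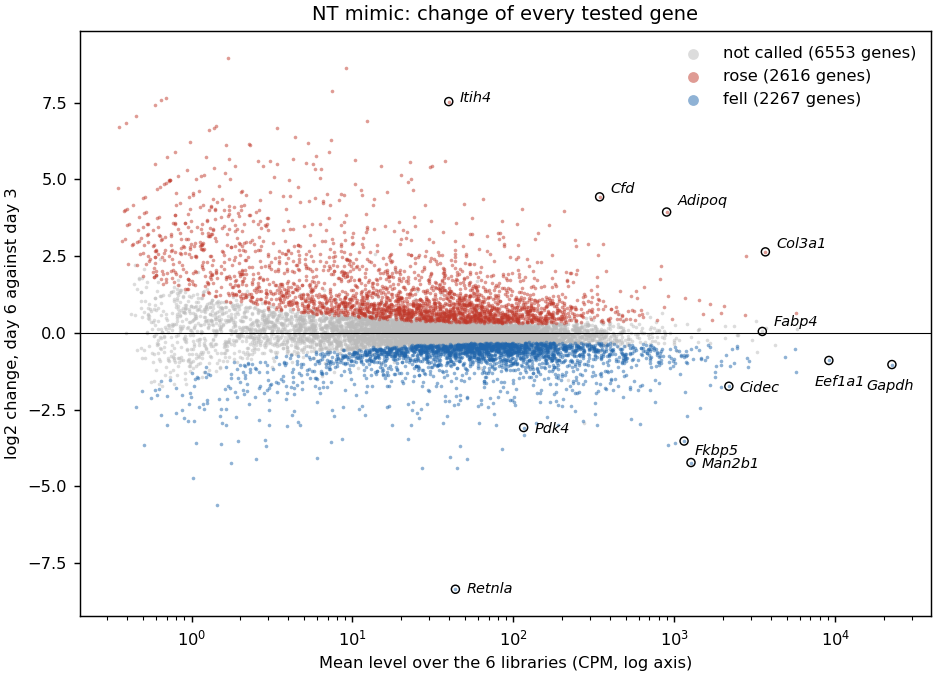
Each point is 1 tested gene, with its mean level over the 6 libraries in CPM on a log axis and its log2 change from day 3 to day 6 on the vertical axis. Called rises (2616) are red, called falls (2267) blue and the remaining 6553 genes grey, and 12 genes of the text are circled. The red cloud reaches farther from 0 than the blue one, above all at low levels.

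The share of rises depended on the level of the gene. Among the 397 genes under 1 CPM, 38.3% rose and 5.29% fell. Among the 87 genes of at least 1000 CPM, 12.6% rose and 59.8% fell, and the median change went from log2 0.99 in the first bin to -0.57 in the last. A low gene passes the filter on low counts through the day on which it is higher, so these shares do not describe the genes that were left out. The falls of the top bin included Rpl4, Rpl3 and Rps2 of the cytosolic ribosome and the glycolytic enzymes Pgam1 and Aldoa, named here after their values were seen. The calls of Pgam1 and Aldoa were lost without number 2 (adjusted p = 0.0464 and 0.0840) and without number 3 (0.0527 and 0.167), and without the replicate block.

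**Figure D2:**
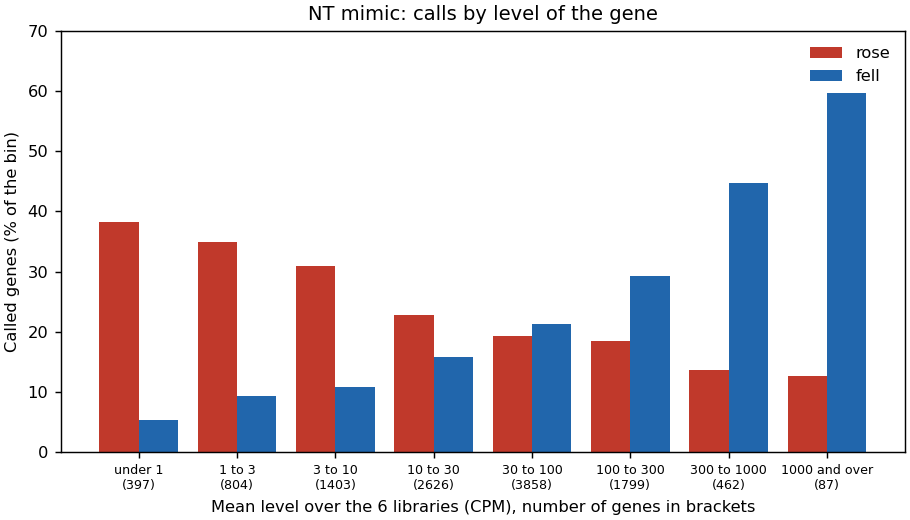
Bars give the percentage of tested genes that rose (red) or fell (blue) in each bin of mean level, with the number of genes of the bin in brackets. Rises decline from 38.3% in the lowest bin to 12.6% in the highest, and falls climb from 5.29% to 59.8%.

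Among called genes of at least 20 CPM on average whose groups did not overlap, the largest fold rises were led by secreted and signalling genes that were low at day 3. Itih4, which encodes an acute-phase inhibitor chain of the plasma, was at 0.567, 0.351 and 0.302 CPM at day 3 and 54.8, 78.3 and 104 CPM at day 6 (log2 7.54, 95% interval 7.02 to 8.06, adjusted p = 3.16e-07). Serpinb1a, an inhibitor of neutrophil proteases, was at 2.72, 0.644 and 1.27 CPM at day 3 and 74.4, 71.9 and 74.6 CPM at day 6 (log2 5.59, 95% interval 4.86 to 6.33, adjusted p = 1.94e-05), and Spon2, a matrix protein of the F-spondin family, at 1.08, 0.819 and 0.785 CPM at day 3 and 37.7, 32.2 and 63.6 CPM at day 6 (log2 5.58, adjusted p = 4.34e-07). All of them stood at a few CPM or less in each day 3 library. Sh2d3c, an adaptor of integrin signalling, rose by log2 5.43, Rasl11a, a small GTPase, by 5.41, and Lrrc17, a secreted leucine-rich repeat protein, by 5.15. Spp1, which encodes osteopontin, was at 2.21, 0.468 and 1.39 CPM at day 3 and 78.1, 26.5 and 29.5 CPM at day 6, with replicate number 1 the highest on both days (log2 5.03, adjusted p = 6.58e-07). Cryab, a small heat shock protein, Mmp23, a membrane metalloproteinase, and Cfd, the complement protease adipsin, completed the 10 largest rises at log2 4.90, 4.66 and 4.43.

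The largest fall was of Retnla, a secreted resistin-like protein, at 55.8, 133 and 71.8 CPM at day 3 and 0.355, 0.199 and 0.213 CPM at day 6 (log2 -8.35, 95% interval -8.89 to -7.82, adjusted p = 3.16e-07). Its day 6 level rests on few counts, so the size of the change is uncertain. Man2b1, a lysosomal mannosidase, was at 1926, 2586 and 2707 CPM at day 3 and 155, 119.97 and 112 CPM at day 6 (log2 -4.22, 95% interval -4.73 to -3.71, adjusted p = 1.14e-05). It was high in every day 3 library and several times lower in every day 6 library. Akr1b3, the aldose reductase that makes sorbitol from glucose, fell by 3.59 on the log2 scale, Cxcl13, a B cell chemokine, by 3.78, and Lcn2, the iron-scavenging lipocalin, by 4.04. Zfp791, Map7d2, a microtubule-associated protein, Ctla2a, a cysteine protease inhibitor, and Far2, a fatty acyl-CoA reductase, stood at log2 -4.40, -4.39, -4.11 and -3.68. For Far2 the day 3 libraries themselves spread from 30.1 to 177 CPM, and the call was lost without replicate number 2 (adjusted p = 0.0173).

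Ranked by the shift in CPM, which depends on gene length as well as on abundance, the rises were led by the interstitial matrix. Col3a1, a fibrillar collagen, was at 721, 1008 and 1309.7 CPM at day 3 and 4395, 6479 and 8130.4 CPM at day 6 (log2 2.64, 95% interval 2.40 to 2.88, adjusted p = 4.52e-07). Its partner Col1a2 was at 867, 578 and 1107 CPM at day 3 and 4140.1, 4283 and 5681 CPM at day 6 (log2 2.50, 95% interval 2.18 to 2.82, adjusted p = 2.27e-06), and Col1a1, Col6a2, Fn1 (fibronectin) and Sparc, a collagen-binding glycoprotein, were among the same 10. The other 4 were Adipoq, Lpl, Scd1 and the imprinted retrotransposon-derived gene Peg10, which was at 4703, 4609 and 4056 CPM at day 3 and 8067, 6752 and 6029 CPM at day 6 (log2 0.63, adjusted p = 0.00101). On the other side stood the housekeeping enzyme Gapdh, at 26997, 31426 and 31087 CPM at day 3 and 20555, 12312 and 12296 CPM at day 6 (log2 -1.03, 95% interval -1.51 to -0.55, adjusted p = 0.00361). Replicate number 1 kept the highest Gapdh level at day 6, and the adjusted p of Gapdh was 0.0266 without number 2 and 0.0509 without number 3. Pgk1, the next enzyme of glycolysis, fell by 0.52 on the log2 scale (adjusted p = 0.00842). Eef1a1 and Eef2, the elongation factors, and Rplp0, a ribosomal stalk protein, fell with log2 values of -0.90, -0.77 and -1.12. Without number 3 the calls of Peg10, Eef1a1 and Eef2 were lost (adjusted p = 0.0440, 0.0131 and 0.0130), as was that of Lpl (0.0792), and that of Pgk1 without numbers 2 and 3 (0.101 and 0.0992). Gapdh, Eef1a1 and Rplp0 have many processed pseudogenes, so the split of reads among copies is uncertain. Mknk2, a kinase of the translation factor eIF4E, and Niban2 fell with log2 values of -1.77 and -2.45, and Col4a1 and Cidec are described below.

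Some genes went from almost no counts to a clear signal. There were 113 genes with at most 3 counts over the day 3 libraries and over 30 at day 6, and 5 genes the other way round. Mustn1, a nuclear protein first known from the musculoskeletal system, had 2 counts in all at day 3 and 1072 at day 6 (ratio 469, 95% counting interval 129 to 3876). Sncg, a synuclein of fat and nerve, had 3 counts at day 3 and 877 at day 6, and Ifit3, an interferon-induced protein, 3 and 398. The secreted Wnt regulator Sfrp2 went from 3 to 264 counts. Dusp27 had no count at day 3 and 201 at day 6, at least 58.6-fold higher against a floor of 3 counts over the group. Krt19 rested on 1 library, at 11.5 CPM in replicate number 1 of day 6 against 0.298 and 0.640 CPM in numbers 2 and 3. Pip, a secreted protein of glands, had 146 counts at day 3 and 3 at day 6. The signals lost at day 6 were all small at day 3, and H3c15 was read in replicate number 1 alone. Intervals and floors cover counting error only.

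Most genes known to be switched on by glucocorticoids fell. Of 20 listed, 18 were tested, 13 fell (72.2%) and none rose, against 19.8% and 22.9% of all tested genes. The median was log2 -1.37 against 0.02 for all tested genes. Fkbp5, the co-chaperone that dampens the glucocorticoid receptor, was at 1846, 2252 and 2239.7 CPM at day 3 and 199, 182 and 169.97 CPM at day 6 (log2 -3.52, 95% interval -3.81 to -3.23, adjusted p = 3.92e-07). Glul, glutamine synthetase, was at 2147, 2125 and 1997 CPM at day 3 and 342, 303 and 313 CPM at day 6 (log2 -2.71, 95% interval -2.94 to -2.49, adjusted p = 3.92e-07), and Cebpd, the early adipogenic factor C/EBPd, at 247, 294 and 304 CPM at day 3 and 41.8, 43.3 and 42.4 CPM at day 6 (log2 -2.72, 95% interval -2.94 to -2.51, adjusted p = 3.16e-07). For all 3 genes the lowest day 3 library was several times above the highest day 6 library. Tsc22d3, the anti-inflammatory GILZ, was at 401, 482 and 678 CPM at day 3 and 112, 139 and 139 CPM at day 6 (log2 -1.97, 95% interval -2.23 to -1.71, adjusted p = 2.48e-06). The metallothioneins Mt1 and Mt2, which bind zinc and copper, had log2 values of -1.73 and -1.45, with replicate number 1 the least lowered for both. Errfi1, an inhibitor of the EGF receptor, the repressor Bcl6, the clock gene Per1 and the transcription factor Klf9 fell as well, at log2 -1.67, -1.61, -1.30 and -1.10. Rgs2, a brake on G proteins that cAMP also induces, fell by 2.00, Arrdc2 by 0.68 and the zinc finger factor Zbtb16 by 0.38 on the log2 scale. Zbtb16 lost its call without any 1 replicate number (adjusted p = 0.0166, 0.0135 and 0.0442), Mt2 without number 2 (0.0108) and Arrdc2 without number 3 (0.0229).

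The 5 tested members that were not called were Sgk1, Dusp1, Ddit4, Tgm2 and Hif3a. Sgk1, a kinase that raises sodium transport, was at 47.7, 55.7 and 51.1 CPM at day 3 and 40.6, 87.4 and 83.1 CPM at day 6 (log2 0.38, 95% interval -0.07 to 0.84, adjusted p = 0.125). It was higher at day 6 in replicate numbers 2 and 3 and lower in number 1. Dusp1, the phosphatase that inactivates MAP kinases, was at 16.3, 29.5 and 28.0 CPM at day 3 and 21.0, 11.6 and 12.2 CPM at day 6 (log2 -0.73, 95% interval -1.55 to 0.09, adjusted p = 0.109), again with number 1 on the other side. Ddit4, an inhibitor of mTORC1, had a log2 value of -0.53 (adjusted p = 0.0153). Without replicate number 1, Sgk1 was called as a rise and Dusp1 and the transglutaminase Tgm2 as falls (adjusted p = 6.00e-05, 4.24e-06 and 5.58e-04). The receptor itself, Nr3c1, was at 190.1, 201 and 171 CPM at day 3 and 233, 333 and 302 CPM at day 6 (log2 0.61, 95% interval 0.36 to 0.87, adjusted p = 0.00150), so its RNA rose while most of the listed targets fell. That call was lost without numbers 2 and 3 (adjusted p = 0.0188 and 0.0173). The count of falls lay between 11 and 14 when 1 replicate number was left out.

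The promoters of these genes were read for the letters that the receptor and CREB bind, because the members moved together. In the RefSeq table of promoters (GRCm38.p6, 250 bases before to 50 after a start), 15 of the 18 tested members had 25 windows. The glucocorticoid response element, given as AGAACA and TGTTCT 3 bases apart and searched on both strands, was in 1 of these windows, that of Sgk1, and in 3 of all 32851 windows. The cAMP response element TGACGTCA was in 2, those of Errfi1 and Dusp1, against 1.79% of all windows and 3.10% of the windows of tested genes. The element is in capitals.
Sgk1 (chr10:21993668-21993748, plus strand): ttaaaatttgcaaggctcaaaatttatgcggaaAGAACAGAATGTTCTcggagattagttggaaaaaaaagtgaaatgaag
Errfi1 (chr4:150854986-150855066, plus strand): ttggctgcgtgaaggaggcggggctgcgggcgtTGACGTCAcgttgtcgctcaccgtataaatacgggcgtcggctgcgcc
Dusp1 (chr17:26508568-26508648, minus strand): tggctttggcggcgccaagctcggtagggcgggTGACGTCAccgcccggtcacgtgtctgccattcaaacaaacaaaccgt
The element begins 189 bases before the annotated start in Sgk1, 51 in Errfi1 and 143 in Dusp1. Of these 3 genes only Errfi1 was called. A match is a description of letters, and the receptor also binds far from promoters.

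**Figure D3:**
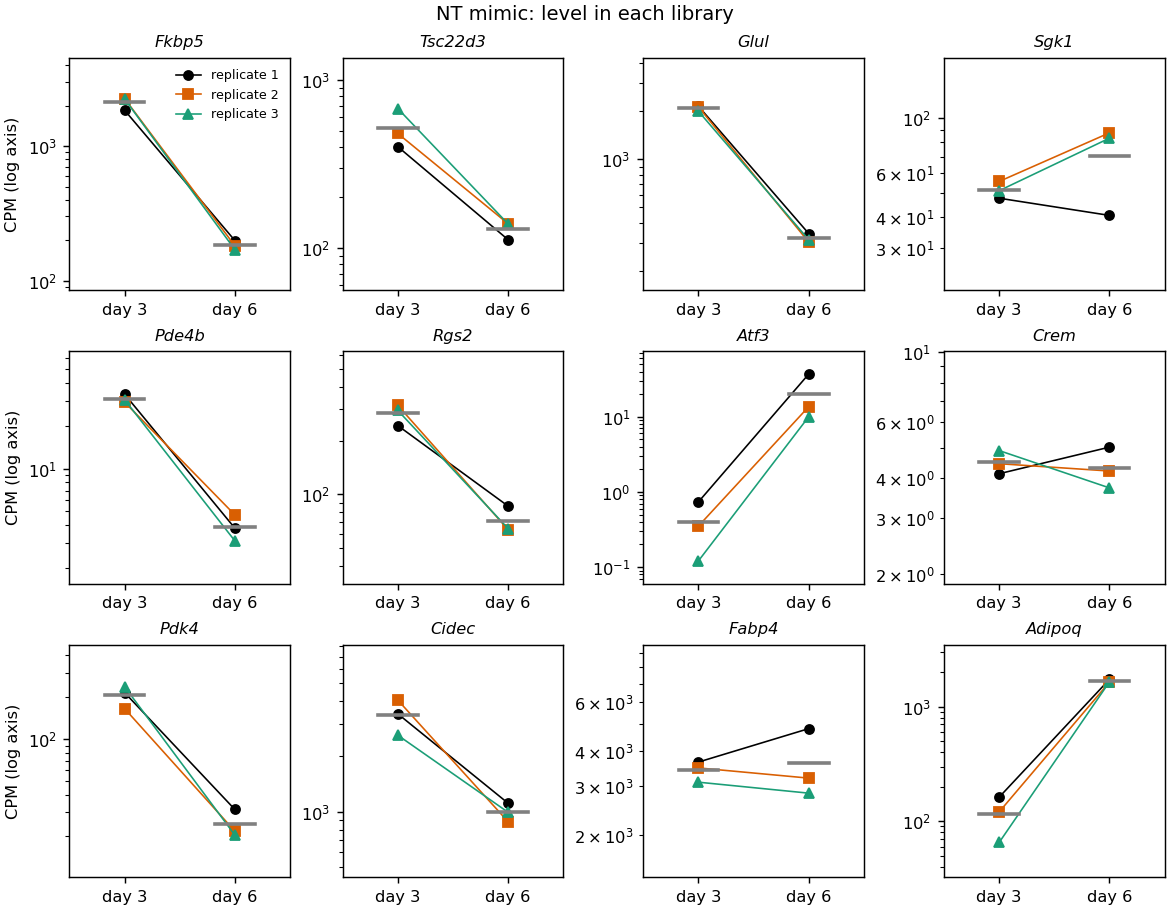
Each panel gives the level of 1 gene in CPM on a log axis in the 3 libraries of day 3 and the 3 of day 6, with lines joining the same replicate number and grey bars at the group means. Fkbp5, Tsc22d3, Glul, Pde4b, Rgs2, Pdk4 and Cidec are lower in every day 6 library, Atf3 and Adipoq higher, and the groups of Sgk1, Crem and Fabp4 overlap.

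Genes induced by cAMP did not move as 1 group. Of 16 listed, 13 were tested, 5 fell (38.5%) and 3 rose (23.1%). Among all tested genes 19.8% fell and 22.9% rose, so the rises were near that share. Pde4b, a phosphodiesterase that cAMP itself induces and IBMX inhibits, was at 33.5, 29.4 and 30.6 CPM at day 3 and 3.80, 4.72 and 3.09 CPM at day 6 (log2 -3.01, 95% interval -3.37 to -2.66, adjusted p = 1.35e-06). Pde4d was at 66.7, 73.6 and 82.4 CPM at day 3 and 22.1, 26.2 and 26.2 CPM at day 6 (log2 -1.58, 95% interval -1.78 to -1.37, adjusted p = 2.17e-06). Both transcripts were lower in every day 6 library. Sik1, a kinase that restrains CREB coactivators, and the orphan receptor Nr4a2 fell by 0.74 and 1.11 on the log2 scale, besides Rgs2. Atf3, a stress-induced factor, went the other way, at 0.737, 0.351 and 0.121 CPM at day 3 and 37.0, 13.6 and 10.03 CPM at day 6 (log2 5.63, 95% interval 5.13 to 6.12, adjusted p = 4.34e-07), with replicate number 1 the highest on both days. Ppargc1a, the coactivator of mitochondrial biogenesis, was at 1.87, 1.29 and 1.09 CPM at day 3 and 7.25, 12.8 and 7.9999 CPM at day 6 (log2 2.69, 95% interval 2.09 to 3.28, adjusted p = 5.37e-05). Fos, from under 1 CPM in each day 3 library, rose by log2 1.21 (adjusted p = 0.00913), a call that was lost without any 1 of the replicate numbers (adjusted p = 0.0347, 0.0212 and 0.0293). That of Nr4a2 was lost without numbers 2 and 3 (0.0356 and 0.0489). Crem, which encodes the cAMP-induced repressor ICER, and Nr4a1 had log2 values of -0.06 and -0.09, with intervals from -0.49 to 0.38 and -0.50 to 0.32. Cebpb, the early adipogenic C/EBPb, was at 181, 281 and 517 CPM at day 3 and 154, 129 and 50.7 CPM at day 6, and the groups did not overlap, but its change was not called (log2 -1.52, adjusted p = 0.162).

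In the cAMP machinery, 10 of 27 tested members rose (37.0%) and 5 fell (18.5%), of 39 listed, with a median of log2 0.13. Among all tested genes 22.9% rose and 19.8% fell. The rises included the adenylyl cyclases that make cAMP, with Adcy3, Adcy5, Adcy6 and Adcy7, and the calcium-dependent phosphodiesterases Pde1a and Pde1b. Pde1b was at 17.1, 7.79 and 7.85 CPM at day 3 and 60.7, 31.9 and 26.9 CPM at day 6 (log2 1.88, 95% interval 1.63 to 2.13, adjusted p = 2.53e-06). Adcy5 and Adcy7 were each at 1.5 CPM or below in all libraries and passed the filter through day 6. Adrb3, the beta-3 receptor of fat cells that raises cAMP, was at 0.227, 0.234 and 0.0604 CPM at day 3 and 0.659, 0.745 and 1.23 CPM at day 6 (log2 2.25, adjusted p = 0.00822), from few counts at day 3, and lost its call without numbers 2 and 3 (adjusted p = 0.0253 and 0.0636). The phosphodiesterase Pde10a and the protein kinase A subunits Prkar2b and Prkacb fell by 0.64, 0.42 and 0.38 on the log2 scale. The falls numbered 2 without replicate number 2 and 3 without number 3, where the calls of Prkar2b and Prkacb were lost (adjusted p = 0.0216 and 0.0203 without number 2, 0.0189 and 0.0227 without number 3), as was that of Pde10a without number 2 (0.0113). Adcy5 was not called without number 3 (0.0158).

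Targets of PPARg went both ways. Of 30 listed, 24 were tested, 5 rose and 6 fell, near the background of 22.9% and 19.8%, and the median was log2 0.13. Adipoq, which encodes the hormone adiponectin, was at 162, 120.5 and 65.2 CPM at day 3 and 1733, 1639 and 1647 CPM at day 6 (log2 3.94, 95% interval 3.32 to 4.56, adjusted p = 4.90e-05). Aqp7, the glycerol channel, was at 1.303, 0.702 and 0.121 CPM at day 3 and 29.9, 16.1 and 14.1 CPM at day 6 (log2 4.84, 95% interval 4.19 to 5.50, adjusted p = 5.40e-06), and Gpd1, which makes glycerol 3-phosphate, at 148, 60.1 and 28.1 CPM at day 3 and 694, 361 and 441 CPM at day 6 (log2 2.90, 95% interval 2.08 to 3.71, adjusted p = 6.00e-04). With Agpat2, an acyltransferase of triglyceride synthesis (log2 0.95), and the lipase Lpl (log2 0.59), these were the 5 rises. Agpat2 was not called without number 2 (adjusted p = 0.0311), nor Lpl without number 3 (0.0792). Pdk4, the kinase that shuts off pyruvate dehydrogenase and that glucocorticoids also induce, was at 216, 166 and 238 CPM at day 3 and 31.2, 21.8 and 20.4 CPM at day 6 (log2 -3.08, 95% interval -3.44 to -2.72, adjusted p = 4.49e-06). Cidec, which fuses lipid droplets, was at 3417, 4058 and 2612 CPM at day 3 and 1113, 883 and 993 CPM at day 6 (log2 -1.74, 95% interval -2.10 to -1.37, adjusted p = 5.83e-05), and Retn, which encodes resistin, at 123, 63.9 and 60.8 CPM at day 3 and 27.6, 9.98 and 22.1 CPM at day 6 (log2 -2.08, 95% interval -2.62 to -1.55, adjusted p = 3.77e-04). For these 3 genes no day 6 library reached the lowest day 3 library. Gpd1 lost its call without numbers 1 and 2 (adjusted p = 0.0386 and 0.0201) and Retn without number 1 (0.0105). Acsl1, which activates fatty acids, fell by 0.51 on the log2 scale, a call lost without number 2 (adjusted p = 0.0568). The fatty acid transporter Cd36 (log2 0.37, adjusted p = 0.0124), the droplet coat genes Plin1 (log2 -0.33, adjusted p = 0.0196) and Plin4 (log2 0.64, adjusted p = 0.0147) and the lipase inhibitor Angptl4 (log2 -0.31, adjusted p = 0.196) were not called. The rises numbered 3 without replicate number 2 and 8 without scaling factors. The PPAR response element, given as AGGTCA repeated after 1 base on either strand, was in none of the 19 promoter windows found for 15 of the members, and in 0.0396% of all windows.

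Among 26 tested nuclear receptors of 48 listed, 4 rose (15.4%) and 8 fell (30.8%), against 22.9% and 19.8% of all tested genes. Nr1h3, the oxysterol receptor LXRa and itself a PPARg target, was at 16.3, 16.8 and 12.4 CPM at day 3 and 92.1, 81.5 and 83.4 CPM at day 6 (log2 2.50, 95% interval 2.25 to 2.76, adjusted p = 7.27e-07). The thyroid hormone receptor Thrb and the orphan receptor Nr2c1 rose by log2 1.59 and 1.13. Rxra, the partner that PPARg needs to bind DNA, was at 1011, 1097 and 1199.7 CPM at day 3 and 480.5, 595 and 598 CPM at day 6 (log2 -0.99, 95% interval -1.20 to -0.78, adjusted p = 3.28e-05), and Rxrb was at log2 -0.60. Vdr, the vitamin D receptor, was at 65.3, 41.0 and 44.9 CPM at day 3 and 21.5, 13.6 and 10.8 CPM at day 6 (log2 -1.74, 95% interval -2.01 to -1.46, adjusted p = 6.56e-06). Pparg itself was at 291, 256 and 227 CPM at day 3 and 331, 287 and 279 CPM at day 6 (log2 0.22, 95% interval 0.03 to 0.40, adjusted p = 0.0514), so its groups overlapped. Without replicate number 2, 1 receptor rose and 4 fell, with Thrb and Nr2c1 no longer called (adjusted p = 0.0298 and 0.0134). Without number 3, 5 fell, and without the replicate block 4.

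The C/EBP and KLF factors, which act in sequence in adipogenesis, had 5 rises and 4 falls among 19 tested of 24 listed, shares near the 22.9% and 19.8% of all tested genes. The late factor Cebpa was at 12.6, 4.33 and 4.71 CPM at day 3 and 24.7, 12.1 and 10.1 CPM at day 6 (log2 1.17, 95% interval 0.83 to 1.51, adjusted p = 2.06e-04), with replicate number 1 well above the other two on both days. Klf6, Klf3 and Klf7 rose by log2 1.74, 1.12 and 1.24. The falls were Cebpd, Klf9, Cebpg and Klf5, an early activator of Pparg that was at 3.74, 4.10 and 5.74 CPM at day 3 and 1.01, 1.04 and 1.39 CPM at day 6 (log2 -1.97, adjusted p = 8.51e-05). Without number 2 the calls of Klf7 and Cebpg were lost (adjusted p = 0.0307 and 0.0313). Cebpa was not called without the replicate block (adjusted p = 0.102).

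The genes that FoxO factors activate when insulin is low were counted because the day 6 cells had spent their last day without added insulin. Of 20 tested members of 23 listed, 9 fell (45.0%) and 3 rose (15.0%), with a median of log2 -0.23. Among all tested genes 19.8% fell and 22.9% rose. Pnpla2, the first lipase of triglyceride breakdown, was at 1027, 946 and 928 CPM at day 3 and 378, 247 and 274 CPM at day 6 (log2 -1.71, 95% interval -1.97 to -1.46, adjusted p = 4.67e-06). Gabarapl1 and Atg14, of autophagy, fell by 1.01 and 0.77, and Irs2 and Insr, the insulin receptor substrate and the receptor, by 0.75 and 0.50 on the log2 scale. Gadd45a, a growth arrest gene, was at 12.5, 12.9 and 14.7 CPM at day 3 and 71.8, 78.3 and 70.6 CPM at day 6 (log2 2.46, 95% interval 2.22 to 2.70, adjusted p = 6.40e-07), and Cited2 and Sesn3 rose by log2 1.61 and 0.77. The FoxO falls numbered 6 without replicate number 2, with Insr no longer called (adjusted p = 0.0210). Of the clock genes, 2 of 17 tested of 19 listed rose (11.8%) and 5 fell (29.4%), against 22.9% and 19.8% of all tested genes. Arntl, the BMAL1 of the activating pair, was at 9.69, 12.2 and 13.9 CPM at day 3 and 22.0, 26.9 and 25.01 CPM at day 6 (log2 1.05, 95% interval 0.78 to 1.33, adjusted p = 1.09e-04), and its partner Clock at 108, 103 and 96.2 CPM at day 3 and 61.3, 61.3 and 64.7 CPM at day 6 (log2 -0.71, 95% interval -0.91 to -0.51, adjusted p = 1.65e-04). Cry2 rose by log2 0.83. The clock falls numbered 3 without number 2 or number 3, and the rises 5 without number 1. The hour of harvest is not given in the sources used here. Among 17 immediate early genes, 3 rose and 3 fell, with Zfp36, Egr2 and Egr3 lower and Atf3, Fos and Ier5 higher, Ier5 not without number 2 (adjusted p = 0.0261). Both shares were below those of all tested genes.

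Most fibroblast markers rose during these 3 days. The 10 preadipocyte and fibroblast markers that rose included Pdgfrb, the PDGF receptor of mural cells, at 5.10, 3.34 and 7.01 CPM at day 3 and 72.1, 82.5 and 127 CPM at day 6 (log2 4.19, 95% interval 3.85 to 4.53, adjusted p = 4.34e-07). S100a4, the fibroblast-specific protein, was at 5.84, 7.26 and 9.84 CPM at day 3 and 82.5, 105 and 119.6 CPM at day 6 (log2 3.75, 95% interval 3.51 to 3.99, adjusted p = 2.38e-07). Dlk1, which holds preadipocytes back from differentiation, rose from 43.7 ± 12.9 to 207 ± 93.6 CPM (SD, n = 3, log2 2.19). Pdgfra, a receptor that marks fat cell progenitors, was at 168, 259 and 329.5 CPM at day 3 and 201, 548 and 641 CPM at day 6 (log2 0.77, adjusted p = 0.00629). For Pdgfra replicate number 1 moved least, and the call was lost without numbers 2 and 3 (adjusted p = 0.0334 and 0.0261). Gsn was at 2319.8, 2535 and 2672 CPM at day 3 and 1258, 945 and 934 CPM at day 6 (log2 -1.27, 95% interval -1.58 to -0.97, adjusted p = 8.39e-05). The count of rises was 6 without replicate number 3 and 7 without number 2. The summed level of the 14 listed markers was 5255 to 6232 CPM at day 3 and 7004 to 8690 CPM at day 6.

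The fibroblast and mesenchymal transcription factors also rose more often than they fell. Of 28 tested of 33 listed, 15 rose (53.6%) and 2 fell (7.14%), against 22.9% and 19.8% of all tested genes. The median was log2 0.63. Sox4 was at 39.3, 43.4 and 55.4 CPM at day 3 and 150.4, 301 and 247 CPM at day 6 (log2 2.30, 95% interval 1.89 to 2.70, adjusted p = 5.87e-05). Prrx1, a homeobox factor of limb mesenchyme, was at 78.8, 90.1 and 104 CPM at day 3 and 171, 186 and 177 CPM at day 6 (log2 0.97, 95% interval 0.76 to 1.19, adjusted p = 3.99e-05), and Zeb2, a repressor of epithelial genes, at 72.5, 66.8 and 71.1 CPM at day 3 and 149, 151 and 153 CPM at day 6 (log2 1.11, 95% interval 0.92 to 1.29, adjusted p = 8.95e-06). In each the day 6 libraries lay above those of day 3. Foxc2, a forkhead factor linked to brown fat, was at 33.2, 42.0 and 45.1 CPM at day 3 and 6.99, 6.01 and 8.05 CPM at day 6 (log2 -2.51, 95% interval -2.82 to -2.21, adjusted p = 1.54e-06), and Snai1 fell by 1.29 on the log2 scale. Leaving out number 2 gave 9 rises, and leaving out the replicate block 7.

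Most collagens rose, but both main chains of basement membrane fell. Of 22 tested genes of 33 listed, 13 rose (59.1%) and 5 fell (22.7%), with a median of log2 0.69. Among all tested genes 22.9% rose and 19.8% fell, so the falls were near that share. The interstitial chains Col3a1, Col1a2 and Col1a1 rose by log2 2.64, 2.50 and 2.18, and Col16a1, Col15a1 and Col8a1 rose as well. Col1a1 was at 268, 210.4 and 431 CPM at day 3 and 1092, 1096 and 1888 CPM at day 6 (log2 2.18, 95% interval 1.94 to 2.42, adjusted p = 9.53e-07). Col4a1, the first of those chains, was at 6993, 8282 and 8866 CPM at day 3 and 3454, 3209.5 and 3238 CPM at day 6 (log2 -1.28, 95% interval -1.56 to -1.003, adjusted p = 3.72e-05). Col4a2, its partner chain, which was chosen after its values were seen, was at 3344, 3908 and 4087 CPM at day 3 and 1985, 2031 and 1987 CPM at day 6 (log2 -0.91, 95% interval -1.15 to -0.67, adjusted p = 1.09e-04). Every day 6 library of both chains lay under every day 3 library, while Col4a5, a minor chain of the same type, rose by log2 0.86. Col5a3, Col7a1 and Col11a2 fell by 0.93, 1.10 and 2.02 on the log2 scale. Among integrins and laminins, 11 of 23 tested of 34 listed rose (47.8%) and 3 fell (13.0%). Itgb3 and Itga1 rose by log2 1.99 and 2.04, and the collagen receptor Itga11 and the laminin chain Lama2 were both near 0 at day 3. The laminin chain Lamb3 and Nid2 rose too, by log2 2.36 and 0.98. Lamb1 and Lamc1, which form the common laminin trimers of basement membrane, fell by 0.73 and 0.68, and Itga3, a laminin receptor, was at 45.2, 66.1 and 74.4 CPM at day 3 and 14.0, 13.3 and 11.9 CPM at day 6 (log2 -2.22, 95% interval -2.64 to -1.79, adjusted p = 6.38e-05).

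Targets of YAP and of the actin-sensing factor SRF mostly rose. Of 26 tested of 32 listed, 15 rose (57.7%) and 4 fell (15.4%), with a median of log2 0.90. Among all tested genes 22.9% rose and 19.8% fell. Flna, the actin crosslinker filamin A, was at 30.9, 25.8 and 31.1 CPM at day 3 and 287, 196 and 249.6 CPM at day 6 (log2 3.05, 95% interval 2.83 to 3.27, adjusted p = 3.16e-07). Acta2, the actin of smooth muscle and myofibroblasts, was at 0.227, 0.0585 and 0.242 CPM at day 3 and 15.6, 17.4 and 10.3 CPM at day 6 (log2 6.30, adjusted p = 1.16e-06), and Fhl2, a LIM protein, at 0.340, 0.117 and 0.242 CPM at day 3 and 4.36, 6.85 and 12.4 CPM at day 6 (log2 4.98, 95% interval 4.17 to 5.80, adjusted p = 7.92e-06). The day 3 levels of Acta2 and Fhl2 rest on few counts. Cdc42ep3 rose by log2 1.64. Amotl2, Tead1, the DNA-binding partner of YAP, Tpm2 and Vcl, which encodes vinculin, fell by 1.11, 0.97, 0.64 and 0.35 on the log2 scale. The falls numbered 2 without replicate numbers 2 or 3, where Tpm2 and Vcl were not called (adjusted p = 0.0151 and 0.0827 without number 2). The contractile gene Des, a muscle marker, was at 7.71, 6.15 and 7.37 CPM at day 3 and 22.1, 12.1 and 14.7 CPM at day 6 (log2 1.17, adjusted p = 2.44e-04).

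The CArG box, the SRF-binding site, was searched on both strands in the promoter windows of this list. Of 25 windows of 23 members, 6 held it (24.0%), against 1.63% of all windows and 1.31% of those of tested genes, in Fhl2, Cnn2, Actg1, Srf and Vcl. The box is in capitals in the 3 of these genes that rose, which were chosen after their values were seen. A second window of Fhl2 (chr1:43196810-43196890, minus strand) held the box CCAAAAAAGG. That window and those of Srf and Vcl are not printed.
Fhl2 (chr1:43163962-43164042, minus strand): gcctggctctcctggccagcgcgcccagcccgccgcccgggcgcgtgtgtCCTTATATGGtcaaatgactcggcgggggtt
Cnn2 (chr10:79988511-79988591, plus strand): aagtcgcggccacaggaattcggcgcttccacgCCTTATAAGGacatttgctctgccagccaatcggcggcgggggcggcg
Actg1 (chr11:120348538-120348618, minus strand): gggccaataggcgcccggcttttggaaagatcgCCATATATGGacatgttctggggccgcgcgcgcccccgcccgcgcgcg
Cnn2, an actin-binding calponin, was at 7.25, 7.73 and 16.9 CPM at day 3 and 35.9, 46.9 and 52.4 CPM at day 6 (log2 2.16, 95% interval 1.72 to 2.59, adjusted p = 6.22e-05), and Actg1, cytoplasmic gamma actin, at 436, 688 and 754 CPM at day 3 and 1019.9, 1041 and 1217 CPM at day 6 (log2 0.84, 95% interval 0.54 to 1.14, adjusted p = 7.24e-04). Srf itself was at 44.9, 43.5 and 45.1 CPM at day 3 and 38.0, 44.8 and 38.2 CPM at day 6 (log2 -0.14, adjusted p = 0.235) and was not called, and Vcl fell. The list holds genes already known as SRF targets, so the share is not independent of how it was made.

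**Figure D4:**
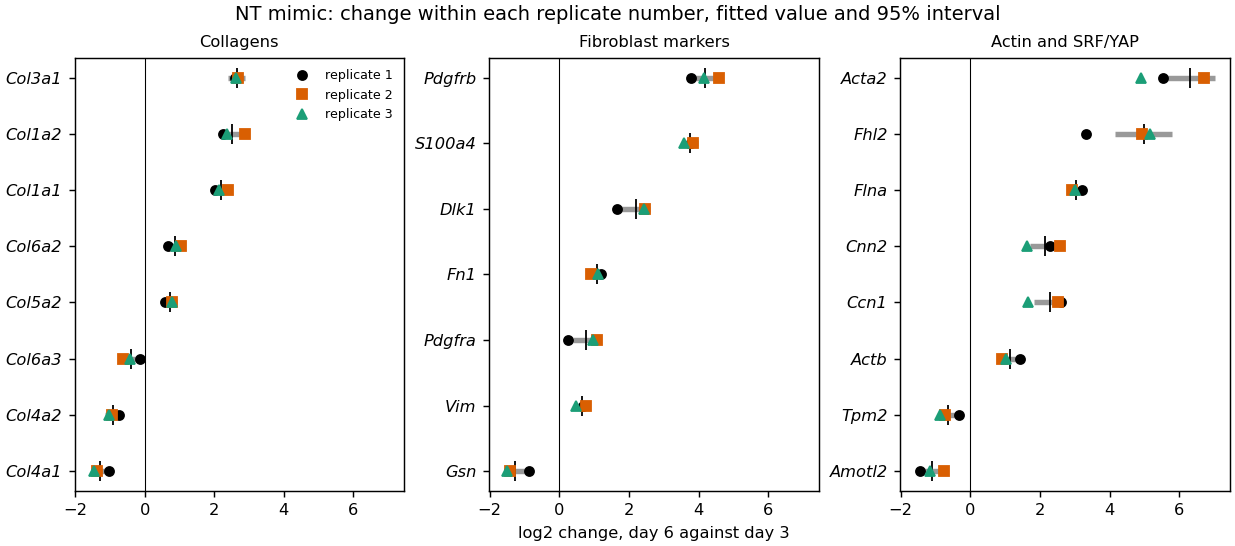
The horizontal axis is the log2 change from day 3 to day 6. Symbols give the change within each replicate number, ticks the fitted value and grey bars its 95% interval, for collagens, fibroblast markers and genes of the actin and SRF or YAP list. Col3a1, Col1a2 and Col1a1 lie between log2 2 and 3, Col4a1 and Col4a2 near -1, and replicate number 1 is nearest to 0 for Pdgfra and Gsn.

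Among secreted signals, rises outnumbered falls. Of 29 tested growth factors of 48 listed, 15 rose (51.7%) and 6 fell (20.7%), against 22.9% and 19.8% of all tested genes. Igf1, the insulin-like growth factor, was at 3.85, 1.35 and 1.39 CPM at day 3 and 21.4, 22.7 and 22.7 CPM at day 6 (log2 3.39, 95% interval 2.60 to 4.18, adjusted p = 2.24e-04). Csf1, the growth factor of macrophages, was at 11.1, 9.66 and 14.4 CPM at day 3 and 53.7, 58.7 and 54.5 CPM at day 6 (log2 2.26, 95% interval 1.94 to 2.58, adjusted p = 3.39e-06), and Angpt1, a ligand of the endothelial receptor TIE2, at 53.4, 42.9 and 52.2 CPM at day 3 and 115, 103 and 114 CPM at day 6 (log2 1.17, 95% interval 0.98 to 1.36, adjusted p = 8.33e-06). The activin subunits moved in opposite directions. Inhba, which makes activin A, was at 22.7, 11.4 and 12.8 CPM at day 3 and 2.79, 0.943 and 0.747 CPM at day 6 (log2 -3.45, 95% interval -3.94 to -2.96, adjusted p = 3.46e-06), and Inhbb, which makes activin B, at 0.113, 0.293 and 0.181 CPM at day 3 and 2.08, 8.09 and 20.1 CPM at day 6 (log2 5.54, 95% interval 4.71 to 6.38, adjusted p = 5.14e-06). Neither pair of groups overlapped. Bdnf and Hbegf fell by 1.58 and 1.28 on the log2 scale. Without replicate number 2, 3 growth factors fell and Hbegf was not called (adjusted p = 0.0462), and without number 3, 4 fell and Hbegf was again not called (0.0272).

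Of 29 tested receptor tyrosine kinases of 51 listed, 11 rose (37.9%) and 6 fell (20.7%), against 22.9% and 19.8% of all tested genes. Besides Pdgfrb, the EGF receptor Egfr rose by log2 1.78, Ptk7 by 1.24 and Ephb2 by 2.93. Fgfr1, the main FGF receptor of preadipocytes, was at 1269, 1657 and 1762 CPM at day 3 and 462, 646 and 741 CPM at day 6 (log2 -1.35, 95% interval -1.57 to -1.14, adjusted p = 6.74e-06). Fgfr2 and Epha2 fell by 0.77 and 1.72 on the log2 scale. Leaving out number 2 gave 7 rises among them, and without the replicate block 5. Among 33 tested G protein-coupled receptors of fat cells of 48 listed, 12 rose (36.4%) and 5 fell (15.2%). Their summed level was lower at day 6, at 1218 to 1257 CPM at day 3 and 1027 to 1120 CPM at day 6. The sum leans on few genes: Gprc5b alone went from a mean of 498 to 199 CPM. By member, 23 were higher at day 6 and 10 lower, with a median of log2 0.41. Gper1, an oestrogen-responsive receptor, was at 0.283, 0.176 and 0.121 CPM at day 3 and 23.2, 25.5 and 24.2 CPM at day 6 (log2 6.91, adjusted p = 3.16e-07), and Fzd4, a Wnt receptor, at 20.2, 19.0 and 16.7 CPM at day 3 and 78.9, 98.5 and 85.9 CPM at day 6 (log2 2.23, 95% interval 1.98 to 2.48, adjusted p = 1.10e-06). The lactate receptor Hcar1, the succinate receptor Sucnr1 and the prostacyclin receptor Ptgir went from under 0.5 CPM on average to between 1 and 4 CPM. Without replicate number 1, 8 of these receptors fell. Adora1, the antilipolytic adenosine receptor, was at 25.1, 8.96 and 5.92 CPM at day 3 and 3.19, 1.29 and 1.33 CPM at day 6 (log2 -2.70, 95% interval -3.16 to -2.25, adjusted p = 9.22e-06), and Gipr, the receptor of the gut hormone GIP, fell by 1.37 on the log2 scale, a call lost without number 2 (adjusted p = 0.0452) and without number 3 (0.0897). Of the Wnt genes, 4 of 17 tested of 35 listed rose and 4 fell, both shares near the 22.9% and 19.8% of all tested genes. The rises were Sfrp2, Tcf7, Ccn5 and Apcdd1, with log2 values of 6.11, 3.58, 2.12 and 1.40. Wnt4 was at 19.2, 37.9 and 65.4 CPM at day 3 and 1.93, 3.08 and 6.13 CPM at day 6 (log2 -3.46, 95% interval -3.75 to -3.17, adjusted p = 3.92e-07), and the Wnt target Ccn4 and Wnt5a, an antiadipogenic ligand, fell with log2 values of -2.20 and -1.09.

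Secreted immune genes rose more often than they fell, but their summed levels overlapped between the days. Of 14 tested complement genes of 27 listed, 11 rose (78.6%) and 2 fell (14.3%), with a median of log2 2.75. Among all tested genes 22.9% rose and 19.8% fell. The complement sum was 2732 to 3577 CPM at day 3 and 1914 to 3473 CPM at day 6. Cfd was at 34.4, 38.4 and 20.5 CPM at day 3 and 686, 641 and 638 CPM at day 6 (log2 4.43, 95% interval 3.99 to 4.88, adjusted p = 4.24e-06). C1ra, the first protease of the classical pathway, was at 11.4, 10.6 and 18.3 CPM at day 3 and 69.8, 141 and 158 CPM at day 6 (log2 3.15, 95% interval 2.65 to 3.65, adjusted p = 4.33e-05), and Clu, the complement-binding clusterin, at 4.48, 4.04 and 4.77 CPM at day 3 and 40.7, 66.8 and 64.0 CPM at day 6 (log2 3.66, 95% interval 3.28 to 4.04, adjusted p = 1.06e-06). C1ra and C1s1 have the near copies C1rb and C1s2, which also rose, and reads may be split between copies. C3, the central component, was at 2444, 3299 and 3021 CPM at day 3 and 824, 1406 and 2209 CPM at day 6 (log2 -1.08, 95% interval -1.59 to -0.58, adjusted p = 0.00493). Its call was lost without numbers 1 and 2 (adjusted p = 0.0348 and 0.0333). Of 16 tested chemokines and cytokines of 38 listed, 8 rose and 1 fell. Ccl9 was at 4.82, 1.46 and 1.03 CPM at day 3 and 31.1, 12.6 and 9.71 CPM at day 6 (log2 2.94, 95% interval 2.54 to 3.33, adjusted p = 2.48e-06), and Tnfsf12, the cytokine TWEAK, rose by log2 2.25. The single fall was that of Cxcl13. Leaving out number 2 gave 3 rises.

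In the mitochondrial lists falls outnumbered rises. None of the 27 tested genes of the citric acid cycle rose and 15 fell (55.6%), with a median of log2 -0.46. Falls made up 19.8% of all tested genes, but 44.8% of those of 300 to 1000 CPM, and genes of like level were not compared. Idh3a, a subunit of the isocitrate dehydrogenase, was at 594, 533 and 481 CPM at day 3 and 246, 209.8 and 224 CPM at day 6 (log2 -1.24, 95% interval -1.44 to -1.03, adjusted p = 8.52e-06). Pcx, pyruvate carboxylase, which feeds citrate export for fat synthesis, was at 3002, 3312 and 2964 CPM at day 3 and 1790.5, 1501 and 1479 CPM at day 6 (log2 -0.96, 95% interval -1.21 to -0.71, adjusted p = 1.07e-04). Both were higher in all day 3 libraries. Leaving out number 2 gave 8 falls. In the breakdown of branched-chain amino acids, a fuel of fat cell lipogenesis, 16 of 23 fell (69.6%) and 1 rose (4.35%), with a median of log2 -0.57. The 2 transaminases of the first step moved in opposite directions. Mitochondrial Bcat2 was at 538, 481 and 443 CPM at day 3 and 212, 132 and 141 CPM at day 6 (log2 -1.62, 95% interval -1.87 to -1.36, adjusted p = 6.04e-06), and cytosolic Bcat1 at 3.003, 1.76 and 3.02 CPM at day 3 and 29.3, 10.2 and 10.8 CPM at day 6 (log2 2.59, 95% interval 1.96 to 3.22, adjusted p = 1.61e-04). Aldh6a1, Ppm1k and Auh fell by 1.25, 1.17 and 1.05 on the log2 scale.

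Of 78 mitochondrial ribosomal protein genes, all tested, 28 fell (35.9%) and 2 rose (2.56%), with a median of log2 -0.31. This count turned on the libraries used: 47 fell without replicate number 1, 10 without number 2 and 14 without number 3, and 13 without scaling factors. Mrps7 was at 183, 221 and 218 CPM at day 3 and 107, 99.2 and 107 CPM at day 6 (log2 -0.99, 95% interval -1.20 to -0.77, adjusted p = 4.12e-05), and Mrps6 at 149, 170.2 and 156 CPM at day 3 and 319.8, 343 and 341 CPM at day 6 (log2 1.08, 95% interval 0.89 to 1.27, adjusted p = 1.12e-05). None of 32 genes of mitochondrial import and dynamics rose, and 8 fell (15, 2 and 3 without numbers 1, 2 and 3). The peroxisome list had 13 falls (39.4%) and 2 rises (6.06%) among 33 tested of 34 listed, with 7 falls without number 2. Amacr, which prepares branched fatty acids for oxidation, was at 149, 171 and 147 CPM at day 3 and 33.8, 34.1 and 35.3 CPM at day 6 (log2 -2.17, 95% interval -2.38 to -1.96, adjusted p = 5.59e-07), and Acox3, an oxidase of the same route, at 37.8, 28.8 and 23.6 CPM at day 3 and 116, 105 and 100.4 CPM at day 6 (log2 1.85, 95% interval 1.61 to 2.10, adjusted p = 2.41e-06). In fatty acid elongation and desaturation, 3 of 13 tested of 20 listed rose (23.1%) and 1 fell (7.69%), against 22.9% and 19.8% of all tested genes. Elovl6, which extends palmitate, was at 2.10, 1.35 and 2.60 CPM at day 3 and 16.9, 10.6 and 17.3 CPM at day 6 (log2 2.89, 95% interval 2.52 to 3.27, adjusted p = 2.11e-06), Fads2, the delta-6 desaturase, rose by log2 2.02, and Hacd2, a dehydratase of the elongation cycle, was at 869, 1094 and 874 CPM at day 3 and 264, 310.5 and 272 CPM at day 6 (log2 -1.74, 95% interval -1.94 to -1.54, adjusted p = 1.31e-06).

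Most of the translation factor genes fell. Of 47 initiation and elongation factor genes, all tested, 28 fell (59.6%) and 1 rose, with a median of log2 -0.43. There were 14 falls without replicate number 2, 16 without number 3 and 17 without scaling factors. Falls made up 19.8% of all tested genes, but 44.8% of those of 300 to 1000 CPM and 59.8% of those of at least 1000 CPM. The list was not compared with genes of like level. Eif1 was at 574, 634 and 648 CPM at day 3 and 299, 311 and 353 CPM at day 6 (log2 -0.95, 95% interval -1.14 to -0.75, adjusted p = 3.03e-05) and Eif3h, of the eIF3 complex, at 522, 575 and 642 CPM at day 3 and 285, 302 and 338 CPM at day 6 (log2 -0.91, 95% interval -1.10 to -0.72, adjusted p = 3.20e-05). Eif6, which keeps the large ribosomal subunit apart until it is mature, was the single rise at log2 0.44, lost without any 1 replicate number (adjusted p = 0.0137, 0.0166 and 0.0154). Of 40 ribosome biogenesis genes 11 fell (27.5%) and 5 rose (12.5%), against 19.8% and 22.9% of all tested genes. There were 2 falls and 3 rises without replicate number 2 and 4 falls without number 3. Of 20 aminoacyl-tRNA synthetase genes 2 fell (10.0%) and 1 rose (5.0%), with 6 falls without replicate number 1.

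Most proteasome genes were not called, while those of the immunoproteasome rose. Of 48 genes, all tested, 6 rose and 7 fell, both below the background, and the median was log2 -0.10. Without replicate numbers 1, 2 and 3 the falls numbered 15, 3 and 4. The rises held the 3 catalytic subunits that interferon brings into the immunoproteasome. Psmb8 was at 0.737, 0.761 and 0.423 CPM at day 3 and 7.60, 17.72 and 12.3 CPM at day 6 (log2 4.24, 95% interval 3.63 to 4.84, adjusted p = 3.73e-06), Psmb9 at 1.70, 1.05 and 0.725 CPM at day 3 and 5.67, 6.25 and 5.60 CPM at day 6 (log2 2.34, 95% interval 1.74 to 2.93, adjusted p = 9.40e-05) and Psmb10 at 10.4, 8.84 and 9.30 CPM at day 3 and 72.2, 85.5 and 73.0 CPM at day 6 (log2 3.01, 95% interval 2.74 to 3.28, adjusted p = 4.52e-07). Their constitutive counterparts, Psmb5, Psmb6 and Psmb7, chosen after their values were seen, had log2 values of -0.01, -0.36 and -0.40, of which only Psmb7 was called, and not without numbers 2 or 3 (adjusted p = 0.0800 and 0.0196). Psme1, a subunit of the matching activator cap, was at 45.4, 51.3 and 48.7 CPM at day 3 and 143, 104 and 160.3 CPM at day 6 (log2 1.47, 95% interval 1.13 to 1.80, adjusted p = 1.08e-04), and Psma1, a structural subunit, at 501, 562 and 501 CPM at day 3 and 179, 148 and 171 CPM at day 6 (log2 -1.65, 95% interval -1.90 to -1.41, adjusted p = 4.26e-06).

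Among cytosolic chaperones, 7 of 31 tested of 32 listed rose and 4 fell, near and below the 22.9% and 19.8% of all tested genes, with Cryab and the heat shock genes Hspa1a and Hspa1b up and the chaperonin subunits Cct2, Cct7, Tcp1 and Cct4 down. Cct4, Cct7 and Tcp1 were called neither without number 2 (adjusted p = 0.0326, 0.0166 and 0.0391) nor without number 3, and Hspa1a not without number 2 (0.0105). Hspa1a and Hspa1b are near-identical copies whose reads may be split. The falls numbered 8 without replicate number 1 and 1 without number 2 or number 3, and the rises 4 without number 3. In the endoplasmic reticulum, 6 of 42 rose and 5 fell, both below the shares of all tested genes. Hspa5, the luminal chaperone BiP, was at 579, 492 and 481 CPM at day 3 and 2081, 902 and 917 CPM at day 6 (log2 1.22, 95% interval 0.73 to 1.70, adjusted p = 0.00239), and Sdf2l1 rose by log2 1.76, though not without number 3 (adjusted p = 0.0232), whereas Xbp1, a factor of the unfolded protein response, fell with log2 -0.45, a call lost without numbers 2 and 3 (adjusted p = 0.0464 and 0.0378). Without scaling factors 16 of these genes rose, without number 2 only 2 fell, and without number 3 there were 3 rises and 3 falls. Glutathione and NRF2 genes had 12 rises (37.5%) and 9 falls (28.1%) among 32 tested of 35 listed. Gstt1, a glutathione transferase, was at 2.27, 0.702 and 0.906 CPM at day 3 and 36.7, 22.4 and 18.3 CPM at day 6 (log2 4.35, 95% interval 3.91 to 4.80, adjusted p = 7.27e-07), and Nqo1, the quinone reductase, at 5.78, 3.04 and 5.62 CPM at day 3 and 29.9, 22.2 and 25.9 CPM at day 6 (log2 2.46, 95% interval 2.10 to 2.81, adjusted p = 3.65e-06). Gclc, the catalytic subunit of glutathione synthesis, was at 107, 127 and 101 CPM at day 3 and 48.5, 35.9 and 30.2 CPM at day 6 (log2 -1.57, 95% interval -1.89 to -1.25, adjusted p = 5.24e-05). Mgst3 and Pgd fell by 1.40 and 1.27 on the log2 scale.

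Of 47 tested lysosomal genes of 50 listed, 18 rose (38.3%) and 11 fell (23.4%), against 22.9% and 19.8% of all tested genes. Their summed level was lower at day 6, at 10310 to 11620 CPM at day 3 and 7492 to 8084 CPM at day 6. Man2b1 alone went from a mean of 2406 to 129 CPM. By member, 31 were higher at day 6 and 16 lower, with a median of log2 0.24. Man2b1 made up the largest fall of the list, and Cd63, a membrane protein of late endosomes, the acid lipase Lipa and the galactosidase Gla rose by log2 1.14, 1.11 and 1.61. Ctsl fell by 1.10 and Npc2, a cholesterol carrier, by 0.76 on the log2 scale. The lysosomal falls numbered 5 without replicate number 2 or number 3, and Ctsl was then not called (adjusted p = 0.0435 and 0.0207). Of the caveolae genes, 4 of 9 tested of 10 listed rose (44.4%) and 3 fell (33.3%). Cavin1 and Cav1, the coat and the core of the caveola, fell by 0.82 and 0.57, while Cavin2 and Cavin3 rose by log2 1.24 and 1.45. The calls of Cav1 and Cavin2 were lost without numbers 2 and 3 (adjusted p = 0.0160 and 0.0292 without number 2). Among cyclins and cyclin-dependent kinase (CDK) inhibitors, 8 of 24 tested of 25 listed rose (33.3%) and 2 fell (8.33%). There were 4 rises without replicate number 2 and 5 without number 3. Ccnd2, a D-type cyclin, was at 383, 297 and 289 CPM at day 3 and 785, 856 and 838 CPM at day 6 (log2 1.37, 95% interval 1.10 to 1.64, adjusted p = 2.31e-05), Ccnd1 rose by log2 1.73 (adjusted p = 0.0252 without number 2), and Cdkn1a, the inhibitor p21, was at 142, 172 and 173 CPM at day 3 and 112, 64.1 and 89.2 CPM at day 6 (log2 -0.91, 95% interval -1.38 to -0.43, adjusted p = 0.00814). The call of Cdkn1a was lost without numbers 2 and 3 (adjusted p = 0.0150 and 0.0636).

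**Figure D5:**
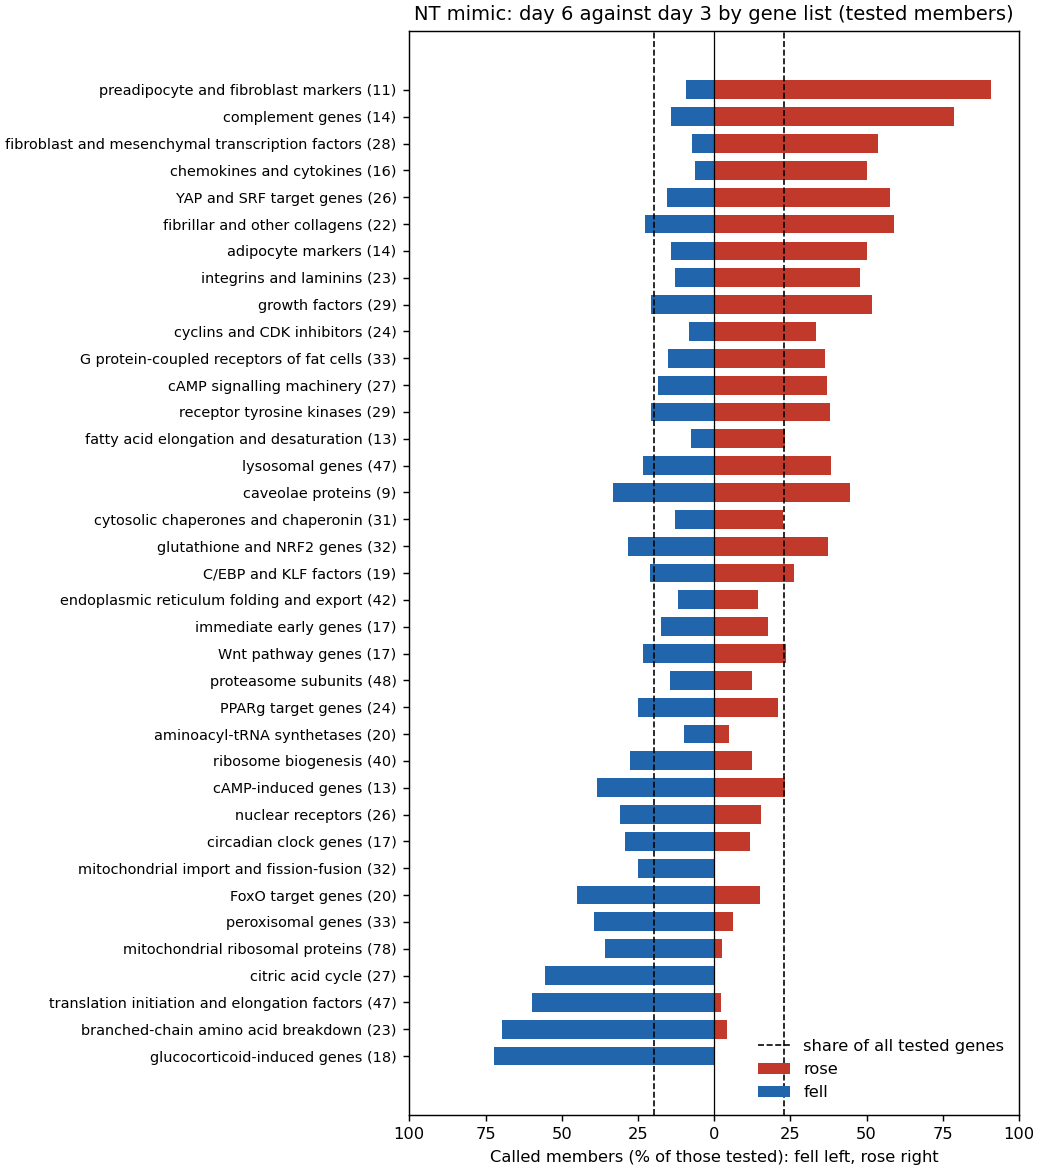
For each gene list with at least 9 tested members (number in brackets), bars give the percentage of tested members that rose (right, red) and fell (left, blue), and dashed lines the shares among all tested genes, 22.9% and 19.8%. Fibroblast markers, complement and collagens reach farthest to the right, and glucocorticoid-induced genes, amino acid breakdown and translation factors farthest to the left.

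A large set of genes stayed close to its day 3 level. For 4740 tested genes the whole 95% interval lay within a 1.5-fold change in either direction, and 4521 of them were not called. The remaining genes that were not called had intervals that reach beyond such a change. Fabp4 belonged to the first kind. Cebpb and Dusp1 belonged to the second.

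The same change of days was measured in the 3 and 3 libraries with the miR-335-5p mimic, which share no library with those above. They do share days and replicate numbers with those above, so they are not taken as an independent repeat. The difference between the changes, fitted over all 12 libraries, was called for no gene of 11703 (0%) by edgeR's quasi-likelihood test, with 361 genes at an unadjusted p below 0.05 (3.08%), and for no gene by DESeq2, with 105 at that level. The smallest adjusted p was 0.0373 with edgeR. Fkbp5 changed by log2 -3.52 with the NT mimic and -3.58 with the miR-335-5p mimic, Adipoq by 3.94 and 4.01, and Pde4b by -3.01 and -2.92. The difference, miR-335-5p minus NT mimic, was -0.06, with a 95% interval of -0.24 to 0.12 for Fkbp5. For Col1a1 it was -0.32, with a 95% interval of -0.47 to -0.17, which was not called either. Calls that miss the threshold do not show that the changes were alike.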

How the data were processed

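RNA of 3T3-L1 cells was sequenced by a commercial provider, and the authors deposited 1 table of estimated counts per gene for 12 libraries (3.37% of values are not whole numbers). HISAT2 2.2.1 and RSEM 1.3.1 stand in the submitters' processing notes beside the mouse build mm39. Annotation and strand setting: not given in the sources used here. Gene IDs were matched to symbols for 16387 of 16414 genes. The expected counts were rounded, and the 6 NT mimic libraries were filtered with filterByExpr by day (11436 genes kept), TMM scaled and tested with edgeR 4.0.16 (limma 3.58.1, R 4.3.3) by the quasi-likelihood test with terms for day and replicate number. P-values were adjusted over all tested genes by the Benjamini-Hochberg method, and an adjusted p below 0.01 was called. The fit was run on simulated counts with few changed genes and a fixed spread, so its error rate on data like these was not tested.

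The replicate numbers paired the libraries: deviations from the day means of same-numbered libraries correlated with r = 0.522, 0.246 and 0.442 across genes, which are not independent replicates. Unlike numbers ran from -0.464 to 0.162, and the positive values (0.162 and 0.115) were between numbers 2 and 3, which are thus paired less clearly than number 1. The deviations of a day cancel out for each gene, so positive values for like numbers push those of unlike numbers below 0. The contrast is thus partly built in. With 17690656 to 18936779 counts a library, 3 counts were taken as the floor of a summed group. Intervals of count ratios are exact 95% counting intervals. The difference between mimics was fitted on all 12 libraries with replicate number within day as a block (11703 genes).

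Genes were named by rule: the 10 largest rises and falls in log2 (at least 20 CPM, groups apart) and in CPM, up to 8 genes with at most 3 counts on 1 day each way, every tested member of the induction lists, and up to 4 called members by p and 4 by size each way in other lists. C1s1, Cebpg, Col4a5, Pparg, Srf and the exceptions stated in the text were chosen after their values were seen. Some genes the rule names are not reported here. The members and lists were chosen with earlier results of these data known. Motifs were searched in RefSeq promoter windows of GRCm38.p6, an older build than that of the counts. Of the 11436 tested genes, 9221 had a window. Alternatives were no block, all 12 libraries, DESeq2 1.42.0, other scaling factors and filters, and each replicate number left out.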

Additional observations from a re-analysis of the deposited data

How the results depend on the processing

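The count of called genes between the days (4883) lay between 3024 (without replicate number 2) and 5530 (without number 1) when 1 number was left out, and no gene that stayed called changed sign. The main fit left 2 residual degrees of freedom a gene, against a median of 8.84 once the spread was pooled across genes. Fits with 1 number left out had fewer residual degrees of freedom still. Of the 4883 calls, 1905 were lost without number 2, 1402 without number 3 and 248 without number 1. Without the replicate block 3618 genes were called, 3609 of them shared with the main calls and in the same direction. The count of genes changed at least 2-fold (1916) was 1636 without the block, between 1648 and 2074 with 1 number left out, and 1038 among genes of at least 10 CPM, where fewer genes were tested. DESeq2 with the block called 4559 genes, and 4407 were shared.

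Without scaling factors, a choice made after seeing the data, 4840 genes were called, 3464 as rises and 1376 as falls, and the median change moved by 0.17 on the log2 scale. An adjusted p below 0.05 gave 6647 genes. For the difference between mimics, 1 gene was called in place of 0 when all genes with at least 1 count were tested, and 0 to 1 with 1 number left out (Ero1a without number 1 and Zfp966 without number 3). The cause was not tested.

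Among the genes named in the text, 32 calls were lost without the block, 41 without number 2, 34 without number 3, 6 without number 1 and 6 by DESeq2. Those lost without the block included Actg1, Hspa5, Lpl, Scd1, Lamb1, Egfr, Ptk7, Fgfr2 and Cct2. Genes that were not called changed sign near 0. With 1 number left out, the log2 change of Crem ran from -0.25 to 0.092, that of Fabp4 from -0.14 to 0.13, of Nr4a1 from -0.24 to 0.18 and of Psmb5 from -0.16 to 0.054. Without scaling factors it was 0.12 for Crem, 0.086 for Nr4a1, 0.030 for Srf and 0.16 for Psmb5, and Psmb5 stood at 0.019 with upper-quartile factors and 0.029 among genes of at least 10 CPM. Depth limits genes under 1 CPM, which stand for fewer than 21 counts a library.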
